A study of Homo sapiens with 2 samples.

Results

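The secreted WNT proteins, their Frizzled receptors (FZD) and the Dickkopf (DKK) and secreted Frizzled-related (SFRP) antagonists were followed in HSC-3 cells grown on Myogel or on plastic. A gene belonged to the set when its symbol was WNT, FZD, DKK or SFRP followed by a number and, where present, the letter A or B. This gave 34 of the 19775 genes on the array, measured by 69 of 54613 probe sets: 17 WNT ligands, 9 Frizzled receptors, 4 DKK and 4 SFRP genes. Genes of these families without a probe set that names them alone, WNT3 among them, are not in the set. The rule itself reads gene names and no measured value. Where a gene had several probe sets, the one with the highest mean log2 value represented it and the others served as a check.

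HSC-3 is an established line from a human squamous cell carcinoma of the tongue, and both groups carried red fluorescent protein from a lentivirus with a non-coding control sequence, with puromycin selection. Both were kept in DMEM/F-12 medium with fetal bovine serum, ascorbic acid and hydrocortisone, and were harvested on the day after seeding. The cells lay either on uncoated plastic or on a coating of Myogel, a gel extracted from human uterine leiomyoma tissue. RNA of 3 wells was pooled for each surface and hybridized to 1 Affymetrix Human Genome U133 Plus 2.0 array, so that no difference given here has a replicate check or a p-value.

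WNT proteins are lipid-modified signals that act over short distances. In the canonical branch they bring a Frizzled and the co-receptor LRP5 or LRP6 together, the destruction complex of AXIN, APC and GSK3 is held back, and β-catenin reaches the nucleus to work with TCF and LEF factors. Other branches signal through Frizzleds without β-catenin and steer cell polarity and movement. SFRP proteins carry a domain like that of the Frizzleds and bind WNT ligands outside the cell, whereas DKK1 occupies the co-receptors.

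The values were linear intensities with a median over probe sets of 59.7 on plastic and 52.5 on Myogel. The lowest value in the table was 1, and 4.42% of probe sets were listed at it on plastic and 4.73% on Myogel. A fold change (FC) is the Myogel value over the plastic value, and a gene is called higher or lower here at FC 1.5 or more in that direction. The median log2 FC was -0.11 over probe sets and -0.069 over genes. The 24 probe sets of the poly-A spike-ins, bacterial transcripts added before labelling, were all lower on the Myogel array, with a median log2 FC of -1.73. Of the 18 probe sets of the hybridization spike-ins, 17 were lower there, with a median log2 FC of -0.36. For β-actin, the ratio of the 3′ to the 5′ probe set was 3.19 on plastic and 6.10 on Myogel, and for GAPDH it was 1.10 and 1.22. The part of these differences between the arrays in the values of the WNT, FZD, DKK and SFRP genes was not tested. Of 6 listed squamous markers, 4 had a probe set that names them alone, namely KRT5, KRT14, CDH1 and EPCAM. All 4 lay above the median gene and summed to 40034 on plastic and 37339 on Myogel. The summed values were 513 and 527 for 5 smooth muscle markers, 709 and 711 for 6 fibroblast markers, 296 and 227 for 3 endothelial markers, and 192 and 234 for 2 blood markers. Among the smooth muscle genes, MYH11 and CNN1 had lower values on Myogel (198 and 174, and 17.6 and the lowest value), while DES, ACTG2 and MYOCD had higher ones (43.0 and 63.5, 239.7 and 272, and 14.6 and 16.1). In RNA from a whole culture, fewer cells that express a gene and less RNA per cell cannot be told apart.

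A signal at or above the median gene was most frequent among the Frizzled receptors. Of these 9 receptors 7 (77.8%) reached it, as did 2 of 4 DKK genes, 4 of 17 WNT ligands (23.5%) and 0 of 4 SFRP genes. The signal of a gene is the geometric mean of both arrays, and its median over all genes was 142. DKK1, DKK3, FZD2, FZD5 and FZD6 read above 1000 on both arrays, and no ligand did. Probe sets bind their targets with different strength, so no order of abundance between genes is read from these values. Between the surfaces, 5 of the 34 genes were higher on Myogel and 8 were lower, where 9.71% and 17.5% of all genes were. Of these 13 genes, 12 (92.3%) had a signal below the median gene, and so had 95.3% of the 5390 genes called on the whole array. The exception was WNT4, which was lower on Myogel.

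**Figure D1:**
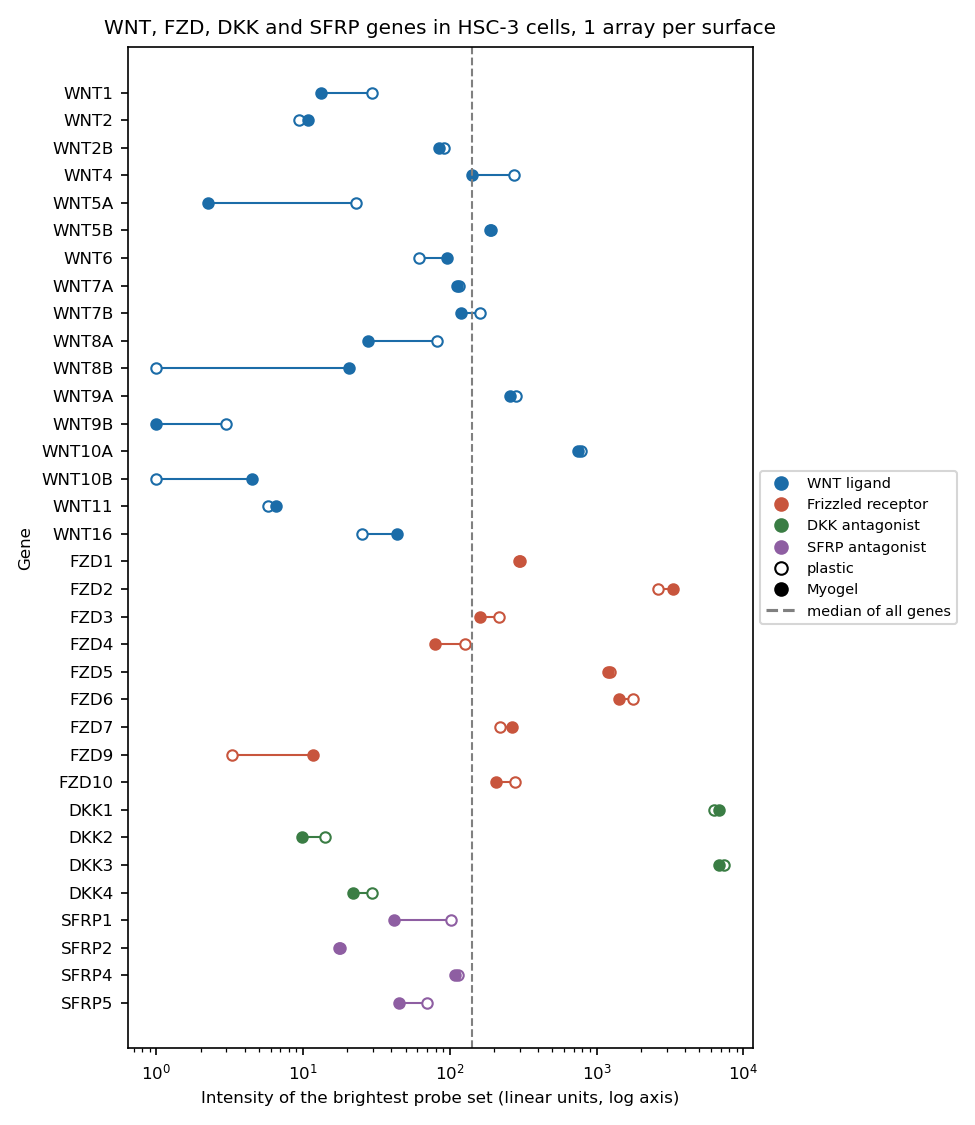
Intensity of the brightest probe set of each of the 34 genes on plastic (open circles) and on Myogel (filled circles), in linear units on a log axis, colored by class, with 1 array per surface. The dashed line is the median signal of all genes, 142, and 7 of the 9 Frizzled receptors have their signal to the right of it, against 4 of the 17 WNT ligands.

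Among the ligands, WNT4, WNT5B, WNT9A and WNT10A were at or above the median signal. WNT4, which directs the formation of kidney tubules and of the female reproductive tract, read 273 on plastic and 141 on Myogel. The Myogel value was 1.93-fold lower (log2 FC -0.95). Of the 1000 probe sets closest to it in signal, 95% fell between -0.82 and 0.65, and WNT4 lay outside this range. The other probe sets of WNT4 were dim and read 17.0 and 35.1 on plastic and 14.6 and 1.00 on Myogel, so all 3 were lower there.

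WNT10A, a ligand needed for teeth, hair and skin, read 785 on plastic and 748 on Myogel, a log2 FC of -0.070. WNT9A, which acts in joint formation, read 280.2 and 258. WNT5B, a ligand of the β-catenin-independent kind, read 190.3 and 189. On the brightest probe sets, the values of each of these 3 ligands on the 2 surfaces lay within 1.09-fold of each other. The second probe sets were dim and differed more, at 27.0 and 13.4 for WNT10A, 7.49 and 1.00 for WNT9A, and 16.5 and 24.0 for WNT5B, of which a further one read 1.00 and 2.54. By the mean log2 FC over probe sets, WNT9A would pass FC 1.5 as lower and WNT5B as higher.

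The 13 other ligands had a signal below the median gene. WNT8A, known from early embryonic patterning, read 81.6 on plastic and 27.9 on Myogel, 2.93-fold lower, with a log2 FC of -1.55 beside a range of -1.51 to 1.54 for its signal. It was measured by a single probe set. WNT1, the founding member of the family, read 29.4 on plastic and 13.3 on Myogel, 2.22-fold lower and also on 1 probe set. Its log2 FC of -1.15 lay within the range of -2.46 to 2.28 for its signal. The WNT1 call was lost with an offset of 50 and with the filter on low signal. WNT5A, the most studied ligand of the β-catenin-independent branch, read 23.1 on plastic and 2.26 on Myogel. Its second probe set went the other way, from 5.01 to 6.81, and both lay so near the lowest value that no direction is read for WNT5A.

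WNT6, an epithelial ligand, was 1.56-fold higher on Myogel, at 61.3 on plastic and 95.8 on Myogel, and 3 of its 4 probe sets were higher there. Its log2 FC of 0.65 lay within the range of -1.17 to 0.96 for its signal, and the call was lost with an offset of 16 or 50 and with the mean over probe sets, 0.43. WNT16 read 25.2 and 43.6 on its brightest probe set, 1.73-fold higher, and 29.0 and 18.0 on its second, so that its 2 probe sets disagreed. WNT8B and WNT10B were listed at the lowest value on plastic and read 20.6 and 4.49 on Myogel. WNT9B read 2.99 on plastic and was listed at the lowest value on Myogel. No fold is given for these 3 genes, which counted as 2 of the 5 higher and 1 of the 8 lower calls.

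The remaining 5 ligands stayed under FC 1.5 on their brightest probe sets. WNT7B, which acts in lung and kidney epithelium, read 161 on plastic and 119.6 on Myogel, but 4.95 and 21.2 on its second probe set, and its mean log2 FC of 0.84 would pass FC 1.5 as higher. The related WNT7A read 115 and 112. WNT2B read 90.9 and 84.4, and all 4 of its probe sets were lower on Myogel, the other 3 being dim, but the brightest turned to a log2 FC of 0.069 after loess centring. WNT2 read 9.37 and 10.8, and WNT11, a ligand of convergent extension movements, read 5.74 and 6.49.

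Several WNT genes lie beside each other in the genome. In the order of protein-coding genes of the assembly GRCh38.p14, WNT6 neighbors WNT10A on chromosome 2, and WNT10B neighbors WNT1 on chromosome 12. WNT6 was higher on Myogel, while WNT10A had a log2 FC of -0.070. WNT1 was lower on Myogel, within the range for its signal, while WNT10B was listed at the lowest value on plastic. No shared direction is read for either pair, since WNT10A changed sign, to 0.036, with the median ratio set to 0 and WNT10B lay at the floor.

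The Frizzled receptors were the class with most genes above the median, and none of the 7 genes there passed FC 1.5. FZD2 had an intensity of 2618 on plastic and 3299 on Myogel, 1.26-fold higher, with a log2 FC of 0.33 just inside the range of -0.35 to 0.35 for its signal. Its second probe set read 598 and 609. FZD7, which is close to FZD2 in sequence, was also higher on Myogel with both of its probe sets, at 219 and 264 on the brighter and 165 and 211 on the other. These were the only receptors whose probe sets were all higher among those with more than 1.

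FZD6, a receptor of planar cell polarity and hair patterning, went from 1775 on plastic to 1428 on Myogel, a log2 FC of -0.31 within the range of -0.41 to 0.45. FZD3, which acts with FZD6 in neural tube closure and also in axon guidance, read 218 on plastic and 159 on Myogel. Its other probe sets read 158 and 105, 137 and 56.7, and 108 and 61.5, so that all 4 were lower on Myogel, by 1.37-fold to 2.41-fold. Of these, the one at 137 and 56.7 lay outside the range for its signal, with a log2 FC of -1.27, and it was not the brightest. By the mean log2 FC over its probe sets, -0.78, FZD3 would pass FC 1.5.

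FZD5, a receptor in gut epithelium and early development, read 1237 on plastic and 1192 on Myogel, and its dim second probe set 59.4 and 97.0. FZD10, a receptor with little expression in most adult tissues, read 277 and 205 on its 1 probe set. FZD1 had almost equal values on its brightest probe set, at 297 and 298. Its other 2 probe sets were lower on Myogel, at 88.2 and 47.3 and at 65.3 and 21.5. The probe sets of FZD1 therefore gave different answers, and the dimmest of them, at a log2 FC of -1.61, lay outside the range for its signal.

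FZD4 and FZD9 were the receptors below the median. FZD4, which also binds the retinal factor norrin, read 126 on plastic and 79.1 on Myogel, 1.60-fold lower, and 11.1 and 11.0 on its second probe set. FZD9 read 3.30 and 11.8, 3.57-fold higher but close to the lowest value of the table. The call of FZD4 was lost under each of the 3 other scalings of the arrays.

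**Figure D2:**
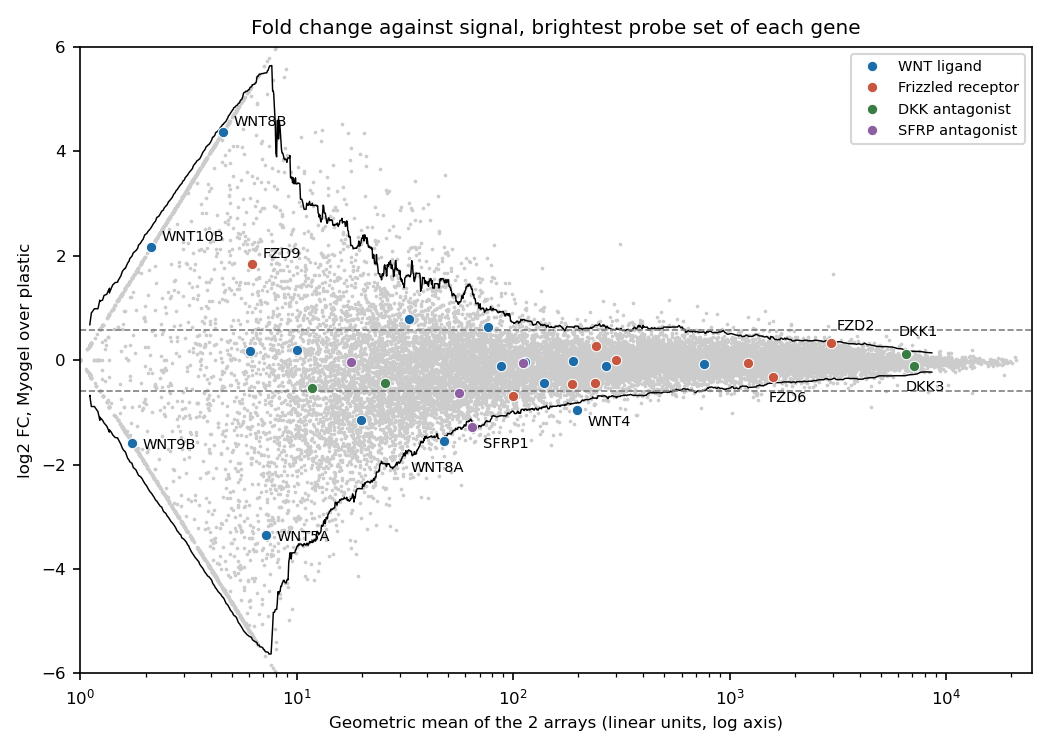
log2 FC of Myogel over plastic against signal, shown in linear units on a log axis as the geometric mean of both arrays, for the brightest probe set of every gene (grey) and of the 34 genes (colored by class). Black lines hold 95% of the 1000 probe sets closest in signal, dashed lines mark FC 1.5, and WNT4, WNT8A and SFRP1 lie just below the lower black line.

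The antagonists fell into bright and dim genes. DKK1, which blocks LRP5 and LRP6 and is itself a well known target of β-catenin, read 6325 on plastic and 6829 on Myogel, a log2 FC of 0.11 within the range of -0.29 to 0.19. DKK3, a divergent family member that is often silenced in tumors, read 7419 and 6857 on its brightest probe set. Its 3 other probe sets above the median read 2046 and 1645, 1593 and 1448, and 1289 and 1081. All 4 were lower on Myogel, by a log2 FC of -0.11 to -0.31, and none passed FC 1.5. The other DKK3 probe sets lay near the lowest value, at 15.1 and 1.00 and at 1.00 and 2.82. DKK2 read 14.2 and 9.84 and DKK4 29.7 and 21.9, both within FC 1.5 on their brightest probe sets, and the second probe set of DKK2 read 14.0 and 3.51.

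SFRP1, the best known of the secreted Frizzled-related proteins and a frequent site of promoter methylation in carcinomas, read 101 on plastic and 41.5 on Myogel. This was 2.44-fold lower, with a log2 FC of -1.29 just outside the range of -1.23 to 1.27. Its other probe sets read 54.2 and 41.0, 44.8 and 25.9, and 27.3 and 39.0, so that 3 of 4 were lower and the other was higher. By the mean log2 FC over probe sets, -0.49, SFRP1 would not pass FC 1.5. SFRP5, measured by 1 probe set, read 69.8 and 44.9, 1.56-fold lower, a call that was also lost under each other scaling. SFRP4 read 113 and 109, with a second probe set at 22.4 and 15.95, and SFRP2 read 17.9 and 17.5 with a second probe set at the lowest value on both arrays.

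DKK1 and WNT4 are shown with the 250 bases before their annotated start, because DKK1 is the antagonist that β-catenin is known to induce and WNT4 was the only gene called with a signal at or above the median. A promoter was given by RefSeq (GRCh38.p14) for 22 of the 34 genes, in 25 entries. Capitals mark matches on either strand to the TCF/LEF core CTTTGA, the AP-1 site TGANTCA, the GC box GGGCGG and the TATA box TATAAA, and overlapping matches were counted. The DKK1 stretch lies at chr10:52314031-52314280 on the plus strand, and the WNT4 stretch at chr1:22143098-22143347 on the minus strand, both written 5′ to 3′.
DKK1: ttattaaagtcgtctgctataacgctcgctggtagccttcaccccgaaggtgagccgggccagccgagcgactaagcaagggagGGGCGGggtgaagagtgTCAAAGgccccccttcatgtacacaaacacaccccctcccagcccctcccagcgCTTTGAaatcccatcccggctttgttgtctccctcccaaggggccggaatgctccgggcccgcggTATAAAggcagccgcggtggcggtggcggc
WNT4: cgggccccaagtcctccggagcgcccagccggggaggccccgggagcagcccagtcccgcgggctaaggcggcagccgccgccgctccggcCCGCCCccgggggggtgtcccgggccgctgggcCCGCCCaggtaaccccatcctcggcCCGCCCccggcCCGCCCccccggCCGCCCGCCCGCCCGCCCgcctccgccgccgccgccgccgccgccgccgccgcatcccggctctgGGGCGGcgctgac

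The DKK1 stretch held the TCF/LEF core at 149 and 95 bases before the start, as TCAAAG and CTTTGA, and a TATA box at 30 bases before it. It was the only 1 of the 25 promoters with the core, which 11.2% of all 35116 promoters held. The WNT4 stretch had 86.8% G and C and 40 CpG, beside a median of 58% and 11 over all promoters, and 9 GC boxes, some of them overlapping. A GC box stood in 20 of the 25 promoters and in 42.6% of all, and a TATA box in 2 of 25 and in 10.7% of all. The AP-1 site stood in 0 of 25 and in 6.57% of all. These matches describe letters in the window and say nothing of binding in these cells.

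The 34 genes were then set against all genes on the array. The 5 higher genes were 14.7% of the set, where 9.71% of all 19775 genes were higher, and the 8 lower genes were 23.5%, where 17.5% were lower. The median log2 FC of the set was -0.088 and that of all genes -0.069. After loess centring, which removes a trend of the ratio with signal, 5 were higher and 6 lower, where 13.3% and 12.9% of all genes were. After quantile normalization there were 6 of each (17.6%), where 13.2% and 13% of all genes were, so that the excess of lower over higher genes depended on the scaling. The set was dimmer than the array, with 38.2% of its genes at or above the median signal against 50%, and calls were mostly dim. Of the 13 brighter genes, those that reached the median signal, 0 were higher and 1 was lower, and among all genes as bright the shares were 0.93% and 1.66%. Of the 21 dimmer genes 5 were higher and 7 lower, and of the 9887 dimmer genes of the array 1829 and 3305 were.

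With a further demand of at least 100 linear units between the arrays, 0 of 34 were higher and WNT4 alone was lower, where 0.445% of all genes were higher and 0.627% lower. Outside the range for their signal lay 3 of the 34 (8.82%), namely WNT4, WNT8A and SFRP1, all lower on Myogel, and 3.49% of all genes lay outside it. In any amount, 11 of the 34 had a higher and 23 a lower value on Myogel, and of all genes 8074 had a higher and 11612 a lower one.

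By class, 4 WNT ligands were higher (23.5%) and 5 lower (29.4%), and 1 Frizzled receptor was higher and 1 lower (11.1% each). Of the 8 antagonists 0 were higher and 2 lower (25%). Of all genes, 9.71% were higher and 17.5% lower. All of these calls except WNT4 had a signal below the median gene. The median log2 FC was -0.070 for the ligands, but 0.069 after loess centring, 0.033 after quantile normalization and 0.036 with the median ratio set to 0. For the receptors it was -0.054, and 0.052 with the median ratio set to 0, so no direction is given for either class. For the antagonists it was -0.28, with 7 of 8 lower in any amount, of which SFRP2 and SFRP4 changed sign under the 3 other scalings. It was -0.082 after loess centring, so its size depended on the scaling, while its sign stayed in the 8 alternatives run for it. Of the 8 antagonists 6 were dim, and all genes below the median signal had a median log2 FC of -0.22. The 2 brighter antagonists had a median of -0.0015, so no direction is given for the antagonists either.

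The direction of the other probe sets was counted as a check. Of the 20 genes with at least 2 probe sets, 11 had all of them on 1 side, 9 lower (with SFRP2, whose second probe set was equal) and 2 higher, and 9 had them on both sides. Thus 55% of these genes were of one direction, where 37.9% of all 10523 genes with several probe sets were. The number of probe sets per gene, on which such a share depends, was not matched, so no better agreement is read from it. FZD2, FZD7 and DKK3 were the genes with more than 1 probe set above the median, and in none of these did those probe sets disagree. The other genes had at most 1 probe set at that signal, so the check among bright probe sets covers these 3 alone.

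**Figure D3:**
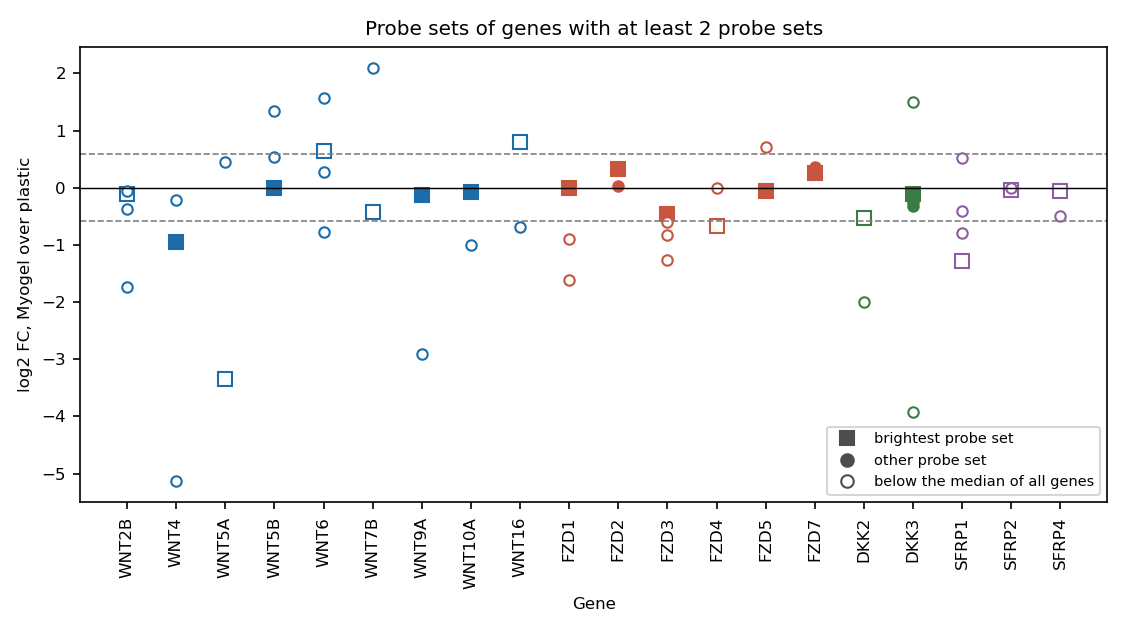
log2 FC of Myogel over plastic for every probe set of the 20 genes with at least 2, with squares for the brightest probe set and circles for the others. Open symbols lie below the median of all genes and dashed lines mark FC 1.5, and the wide spread within WNT4, WNT5A, WNT7B and DKK3 comes from open symbols.

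The rest of the pathway was read from 8 lists by role, in which 92 of 95 genes had a probe set that names them alone. Of these, 7 (7.61%) were higher on Myogel and 10 (10.9%) lower, and the median log2 FC was 0.031. These shares lay below those of all genes, but the lists were brighter. At or above the median signal were 62 of the 92 (67.4%), against 50% of all genes. The 30 dimmer genes held 7 higher and 8 lower, and the 9887 dimmer genes of the array 1829 and 3305. Among all genes as bright as the others, 0.93% were higher and 1.66% lower. The 62 brighter genes of the lists held 0 higher and 2 lower genes. The first was CSNK1G1, a casein kinase that phosphorylates LRP6, at 565 on plastic and 366 on Myogel, with a log2 FC of -0.63 at the edge of the range of -0.62 to 0.61. Its other probe sets read 337 and 269, 184 and 226, and 26.3 and 58.2, and so went both ways. The second was TLE3, a co-repressor of TCF factors, at 239.8 and 159.6, and its other 3 probe sets had a log2 FC between -0.13 and -0.03. After loess centring both fell short of FC 1.5, at a log2 FC of -0.58 for CSNK1G1 and -0.49 for TLE3, and after quantile normalization TLE3 did, at -0.48.

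The co-receptors LRP5 and LRP6 read 359 and 822 on plastic and 423 and 723 on Myogel. The other probe sets of LRP6, also above the median gene, were higher on Myogel, at 198.4 and 286.7 and at 189.1 and 247.8. No direction is therefore read for LRP6. The second probe set of LRP5 was dim and read 35.3 and 104.9. The largest change among the brighter co-receptors was that of PTK7, a pseudokinase of planar polarity, at 459 and 361. Of 6 genes in this list 1 was higher and 0 lower, where 9.71% and 17.5% of all genes were. In ligand secretion, where 0 of 4 were higher and 1 was lower, the WNT carrier WLS read 3257 and 3358. The other probe sets of WLS, also above the median gene, were lower on Myogel, at 1012 and 946 and at 534 and 504. NOTUM, an enzyme that removes the WNT lipid, read 239.6 and 211. Of 11 other secreted modulators, 2 were higher and 4 lower, and SOSTDC1 was the only one above the median, at 729.97 and 722. The 10 others were dim, and of the 9887 dimmer genes of the array 1829 were higher and 3305 lower. The 2 higher ones, WIF1 and DKKL1, were listed at the lowest value on plastic, so no result is read from this count.

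Of 8 genes for receptor turnover and R-spondin receptors, 0 were called in either direction, where 9.71% of all genes were higher and 17.5% lower. The ubiquitin ligase ZNRF3, which clears Frizzleds from the surface, read 566 and 453, and the R-spondin receptor LGR4 read 3797 and 3969. In the cytoplasmic relay 2 of 22 were higher and 1 lower, and CTNNB1, the gene of β-catenin, read 7285 and 7664. Its other probe sets were lower on Myogel, at 583.6 and 428.0 and, dim, at 129.6 and 93.1, so the probe sets of CTNNB1 disagreed. DVL1, a Dishevelled adaptor named after its values were seen, read 1249 and 1843, a log2 FC of 0.56 outside the range of -0.44 to 0.42 but under FC 1.5. In the nuclear complex 1 of 13 was higher and 2 lower, and LEF1 read 372 and 326. In the list of planar polarity and non-canonical relay 0 of 18 were higher and 1 lower, and VANGL2, a core polarity protein, read 395 and 547.

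Frequent targets of β-catenin gave 2 higher and 1 lower of 17, with a median log2 FC of 0.14. Of all genes, 9.71% were higher and 17.5% lower. In any amount, 10 of the 17 had a higher and 7 a lower value on Myogel. The gene called lower was TNFRSF19, dim at 51.8 on plastic and 28.5 on Myogel. Values were also lower there for LEF1, ZNRF3, NOTUM, ASCL2, CD44 and MMP7. AXIN2, the target most used as a readout of the canonical branch, read 30.0 on plastic and 34.5 on Myogel, below the median gene. Its other probe sets, dimmer still, read 8.27 and 32.6, 10.3 and 9.84, and 4.94 and 19.6. MYC read 3882 and 4222, and CCND1, the gene of cyclin D1, read 3338 and 3940. JUN had the largest change among the brighter targets, at 925 and 1367, with a log2 FC of 0.56 outside the range of -0.51 to 0.48, and all 4 of its probe sets were higher on Myogel. SP5, a dim target named after its values were seen, read 24.8 and 99.8 on 1 probe set, a log2 FC of 2.01 beside a range of -1.41 to 1.53.

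**Figure D4:**
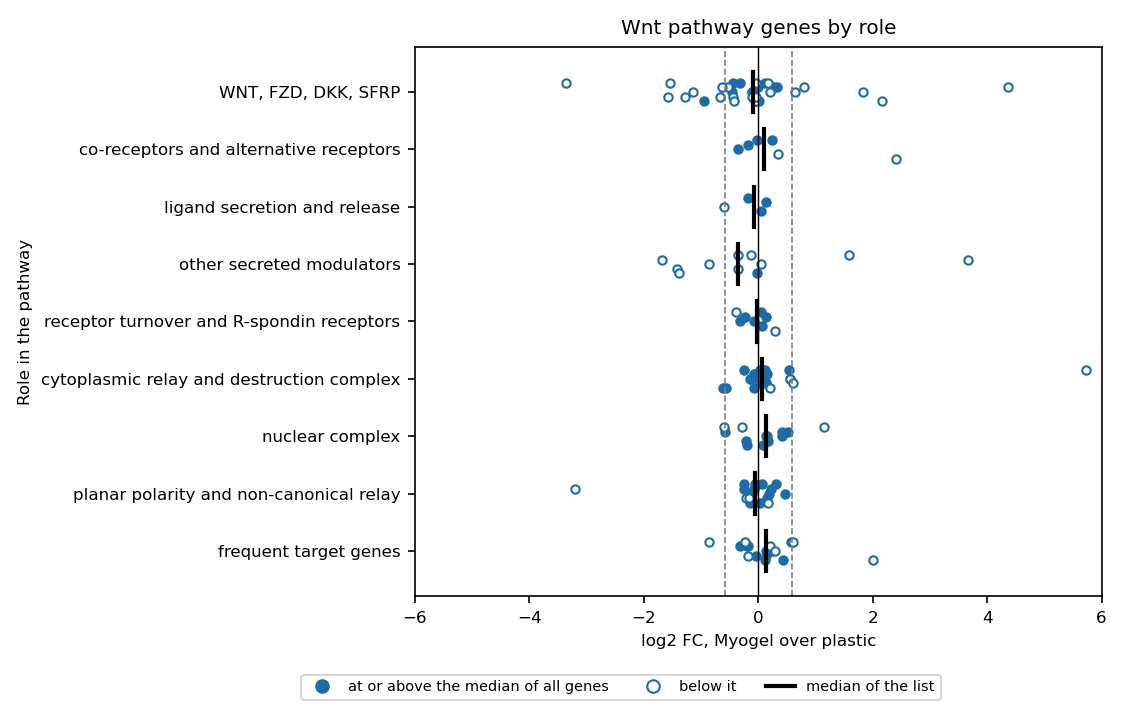
log2 FC of Myogel over plastic for the 34 genes and for the 8 lists of other pathway genes by role, with filled circles at or above the median signal of all genes and open circles below it. Black bars are list medians and dashed lines mark FC 1.5, and only 3 filled circles lie beyond them, those of WNT4, CSNK1G1 and TLE3.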

How the data were processed

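RNA of HSC-3 cells on Myogel and on plastic was measured on 1 Affymetrix array per surface, each a pool of 3 wells. Samples were grouped by their titles, the design text and the methods, since a treatment label names uncoated plates for both. The authors made the deposited intensity values in dChip, with version, model and normalization not given in the sources used here. Values are linear with a lowest value of 1, and the number of arrays limits the precision.

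Values were not scaled further, and FC 1.5 or more, Myogel over plastic, was the fold named in the methods of the study. Applied to these values it called 5390 of 19775 genes (27.3%), a far larger share than the study reports. The calls given here are therefore not those of the study, and the cause of the difference was not tested. Probe sets were named from the platform annotation, and their symbols were brought up to date through Entrez identifiers in a RefSeq table (GRCh38.p14). Of 54613 probe sets, 41091 had 1 gene, 1801 had several and were given no name, and 11721 are left unnamed. The symbols matched 69 probe sets before and after the update, and 6 more were left out because their annotation names several genes. The range beside a fold held 95% of the log2 FC of the 1000 probe sets closest in signal.

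Named with values were genes of the set at or above the median gene signal, with FC 1.5 or more, at the lowest value or with disagreeing bright probe sets, and the others in brief. In each pathway list, up to 3 genes a direction were named that reached both FC 1.5 and the median signal, or else the one that changed most at that signal. Further genes of a list, such as LRP6, CTNNB1, AXIN2, MYC and CCND1, were named outside this rule. The genes and lists were chosen with earlier results of these data known. The alternatives were quantile normalization, loess centring (span 0.3), a median ratio of 0, offsets of 16 and 50, a filter on low signal, omission of probe sets marked _x, _s or _a (designs that may match several transcripts), FC 1.2 and FC 2, a difference of 100 linear units, and the mean over or any of the probe sets of a gene. Calculations used Python 3.11.15 with numpy 2.4.6, pandas 2.3.3, scipy 1.17.1, statsmodels 0.14.6 and matplotlib 3.10.9, and were tested on simulated data. With 1 array per surface no test was made.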

Additional observations from a re-analysis of the deposited data

How the results depend on the processing

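With 1 array per surface no replicate could be left out, and most calls rest on dim probe sets. The count of higher genes, 5, became 1 with an offset of 16 added to the values, 0 with an offset of 50, 1 with the filter on low signal, 3 at FC 2, 0 with a difference of 100 linear units and 9 where any of a gene's probe sets counted. The count of lower genes, 8, became 5, 3, 5, 5, 1 and 17 under the same settings, and 14 at FC 1.2. The offset of 50 kept WNT4, WNT8A and SFRP1. The 3 other scalings kept 11 of the 13 calls and lost FZD4 and SFRP5. The median log2 FC of the set, -0.088, was 0.019 with the median ratio set to 0 and -0.33 as the mean over probe sets. That of the ligands, -0.070, was 0.033 after quantile normalization, 0.069 after loess centring and 0.036 with the median ratio set to 0. That of the receptors, -0.054, was 0.052 with the median ratio set to 0, -0.18 with the filter, -0.16 without probe sets marked _x, _s or _a and -0.31 as the mean over probe sets. That of the antagonists, -0.28, was -0.089 after quantile normalization, -0.082 after loess centring, -0.17 with the median ratio set to 0, -0.17 and -0.11 with offsets of 16 and 50, -0.11 with the filter and -0.47 as the mean over probe sets. The 17 pathway genes called became 1 with a difference of 100 linear units. The log2 FC of WNT5A, -3.35, reversed to 0.44 without the marked probe sets, because its second probe set then stood for the gene. Of 231 values of single genes under alternatives, 24 in 10 genes had the other sign, WNT5A being the only gene called among them. The uncalled WNT7B (-0.43) turned to 2.10 without the marked probe sets and 0.84 as the mean over probe sets, and FZD5 (-0.054) to 0.71 and 0.33. Dim genes also moved far without a change of sign, as FZD9 from 1.83 to 0.21 with an offset of 50. The cause was not tested for the other shifts.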

Other observations

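Noncoding transcripts beside the Frizzled genes were also on the array, under symbols of their own. FZD4-DT, the divergent transcript of FZD4, read 45.7 on plastic and 61.6 on Myogel. FZD10-AS1, antisense to FZD10, read 17.2 and 16.4 on its brighter probe set and 27.7 and 3.95 on the other. The 2 probe sets of FZD10-AS1 gave different answers, and all of these values lay below the median gene.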
